A study of Mus musculus with 6 samples.

Results

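Natriuretic peptide signalling and gap junctions link the granulosa cells (GCs) of an ovarian follicle to one another and to the oocyte, and 7 genes of these systems were followed here by RNA-seq in mouse GCs after cyclophosphamide (CTX). The genes were chosen by symbol from their known roles and not by a rule on their values, though earlier results of these data were known. They were 7 of 54532 genes in the expression table. These 7 were the peptide gene *Nppc*, the receptor genes *Npr1*, *Npr2* and *Npr3*, and the connexin genes *Gja1*, *Gja4* and *Gjc1*. None of them passed the test for a change 6 h after CTX, and the most abundant of them, *Gja1*, *Nppc* and *Npr2*, had CTX means at 85.4%, 67.2% and 79.5% of their PBS means.

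All mice were female, of the ICR strain and 3 weeks old. Every animal in both groups had received 5 IU PMSG, a gonadotropin preparation that drives follicles to grow, 22 h before treatment, so the PBS group was itself gonadotropin-primed. The CTX group then received 1 intraperitoneal injection of 120 mg/kg CTX, an alkylating anticancer drug that is activated in the liver, and the PBS group received the same volume of PBS. GCs were taken 6 h later, in 3 samples per group, and each sample pooled the GCs of 3 mice, so that differences between single animals could not be seen and the samples were the replicates. The values were FPKM, which are read counts scaled by gene length and library size, so that comparisons of levels between genes depend on the lengths used.

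C-type natriuretic peptide (CNP), the product of *Nppc*, is made by the mural GCs that line the follicle and binds NPR2, a receptor guanylyl cyclase that is abundant in the cumulus cells around the oocyte. The cGMP made there passes through gap junctions into the oocyte, where it slows the breakdown of cAMP and so holds meiosis until the ovulatory signal arrives. Gap junction channels are built of connexins: CX43, from *Gja1*, joins GCs to each other, CX37, from *Gja4*, joins the oocyte to the GCs next to it and is also made by endothelial cells, and CX45, from *Gjc1*, is a further connexin of GCs. NPR1 is the guanylyl cyclase receptor of atrial natriuretic peptide, and NPR3 takes natriuretic peptides out of circulation without making cGMP.

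The coding end of *Nppc* is shown first because it holds the active hormone: the last 22 codons of its 126-codon reading frame encode CNP, and they lie in exon 2 of 3 on the minus strand at chr1:86669667-86669732 (GRCm38, GENCODE M21 annotation). Capitals mark the 2 cysteine codons, codons 6 and 22 of the peptide, whose side chains close the ring of the hormone.
Nppc coding end: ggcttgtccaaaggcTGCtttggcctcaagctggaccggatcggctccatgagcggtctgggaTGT

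The 250 bases before the RefSeq start of the 3 most abundant members are shown because these are the members on which the comparison of ligand, receptor and channel rests. They are given 5′ to 3′ on the strand of the gene (RefSeq, GRCm38.p6), at chr1:86670574-86670823 on the minus strand for *Nppc*, chr4:43631685-43631934 on the plus strand for *Npr2* and chr10:56377050-56377299 on the plus strand for *Gja1*. Capitals mark matches to the motifs searched.
Nppc: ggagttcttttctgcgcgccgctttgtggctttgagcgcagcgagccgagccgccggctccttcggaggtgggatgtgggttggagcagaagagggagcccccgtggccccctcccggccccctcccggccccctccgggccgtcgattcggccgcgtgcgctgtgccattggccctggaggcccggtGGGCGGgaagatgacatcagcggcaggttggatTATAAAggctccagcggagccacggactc
Npr2: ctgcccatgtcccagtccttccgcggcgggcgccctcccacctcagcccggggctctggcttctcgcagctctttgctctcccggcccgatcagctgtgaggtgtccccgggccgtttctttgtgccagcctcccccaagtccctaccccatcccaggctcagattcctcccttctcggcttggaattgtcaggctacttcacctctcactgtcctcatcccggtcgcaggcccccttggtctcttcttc
Gja1: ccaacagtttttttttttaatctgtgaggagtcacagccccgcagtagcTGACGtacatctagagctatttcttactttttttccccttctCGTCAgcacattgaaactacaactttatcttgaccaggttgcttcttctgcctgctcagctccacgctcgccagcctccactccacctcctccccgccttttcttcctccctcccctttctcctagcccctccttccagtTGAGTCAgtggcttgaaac

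RefSeq promoters were found for 6 of the 7 members, all but *Gjc1*. On either strand, the motifs searched were the full cAMP response element TGACGTCA, its core TGACG and the AP-1 motif TGAGTCA or TGACTCA. The GC box GGGCGG, the TATA motif TATAAA and the consensus of a p53 half-site were searched too. A p53 half-site is only part of a p53 response element, and whole p53 elements were not searched. Every full cAMP response element also holds the core. Over the 32851 promoters of the same length, the full cAMP response element was present in 1.55%, the core in 17.8% and the AP-1 motif in 4.46%. The GC box was present in 32.7%, the TATA motif in 12.4% and the p53 half-site consensus in 7.13%. *Nppc* had 1 TATA motif that ended 23 bases before the start and 1 GC box that ended 56 bases before it. *Gja1* had 2 cores and 1 AP-1 motif, the latter ending 12 bases before the start, and *Npr2* had none of these motifs. Of the members not shown, *Npr1* had 2 GC boxes, *Gja4* had 1 core and 1 GC box, and *Npr3* had 1 core. The share of G and C was 69.2% in *Nppc*, 70.4% in *Npr1*, 64.4% in *Npr2* and 61.2% in *Gja4*. These lay above the median of 52.4% over all promoters, and *Gja1* and *Npr3*, at 50.0% and 38.8%, lay below it. These matches describe letters only and no binding was measured.

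The libraries were read to a similar depth, with 16005869 to 17790353 reads assigned to genes in the PBS samples and 17727770 to 18455011 in the CTX samples, so that 3 reads on a gene of 1 kb came to 0.164 to 0.185 FPKM. *Cdkn1a*, a p53 target used to check the treatment labels, was 9.06 ± 0.319 FPKM (SD, n = 3) in PBS and 58.6 ± 13.8 in CTX (log2 fold change 2.65, SE 0.18, limma with Benjamini-Hochberg adjustment, adjusted p = 1.9e-03). The 11 GC markers were all detected and their summed FPKM was 13314 to 14612 in PBS and 11402 to 12287 in CTX, with 0 of 11 called. Most of that sum was *Inha*, the inhibin subunit, at 9606 FPKM in the PBS mean and 8889 in the CTX mean. Other cell types gave far lower sums: the 12 oocyte markers 44.1 to 97.7 in PBS and 65.6 to 116 in CTX, the 7 theca markers 37.0 to 39.6 and 9.97 to 36.2, the 8 endothelial markers 6.78 to 7.41 and 2.81 to 6.21, the 7 smooth muscle markers 9.42 to 11.2 and 17.9 to 22.5, the 8 leukocyte markers 18.0 to 20.1 and 20.8 to 58.4, and the 5 erythroid markers 319 to 454 and 138 to 497. No marker was at 0 in every sample, and *Acta2*, a smooth muscle actin gene, was the only one of these markers called. In PBS most of the theca sum was *Cyp17a1*, at 32.7 FPKM in the PBS mean and 14.4 in the CTX mean. The part of these other cells in the results below was not tested. CTX replicate 2 stood apart: it held the highest or the lowest value of the 6 samples in 58.0% of the genes tested, against 23.5% to 32.0% for each other sample, and each member is therefore also given without it. In bulk GCs, fewer cells of a type and less RNA per cell cannot be told apart.

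A gene was called when its adjusted p in limma was below 0.05 and its change was more than 2-fold. By that rule 139 of 14463 genes tested were called, which is 0.961%, and 0 of the 6 members that passed the filter of a mean of 0.5 FPKM were among them. At an unadjusted p below 0.05, 1 of the 6 members (*Nppc*) passed in limma on FPKM, against 19.6% of all genes tested, and 2 passed in limma voom on the rebuilt reads, against 20.2% of all genes, with 0 called. The count in limma on FPKM was thus near the share of all genes. It was 3 of 6 without CTX replicate 2 (19.9% of all genes), with scaling to equal FPKM sums (21.9%) and with sample weights (50.3%). The other alternatives gave 0 to 2. Before any test, 4 of the 6 members had every CTX sample below every PBS sample (*Nppc*, *Npr1*, *Npr2* and *Gja1*), an arrangement that 14.1% of all genes tested showed. The opposite arrangement was found in 0 of the 6 members and in 15.0% of all genes tested. The median log2 fold change was -0.30 over the 6 members and -0.01 over all genes tested. The 11 GC markers had the same median of -0.30, with 7 of 11 below in every CTX sample and 1 above, and whether the members differ from GC genes at large was not tested.

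**Figure D1:**
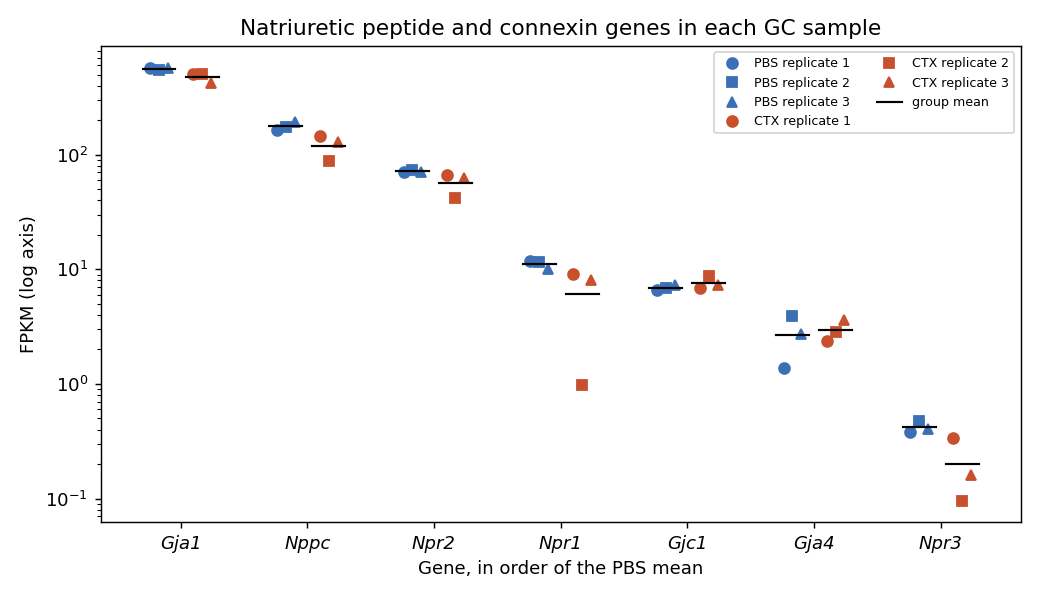
FPKM of the 7 genes (log axis) in each of the 6 GC samples, with the genes ordered by their PBS mean, PBS samples in blue, CTX samples in red and the group mean as a bar. *Gja1* was the highest in every sample and *Npr3* the lowest, and CTX replicate 2 (red square) lies far below the other samples in *Npr1*, at 0.978 FPKM.

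In the PBS group the levels ran from *Gja1* through *Nppc*, *Npr2*, *Npr1*, *Gjc1* and *Gja4* to *Npr3*. No neighbours in that order had overlapping ranges over the 3 samples. *Gja1* was 3.14 times *Nppc*, *Nppc* 2.49 times *Npr2* and *Npr2* 6.45 times *Npr1*. *Npr1* was 1.61 times *Gjc1*, *Gjc1* 2.59 times *Gja4* and *Gja4* 6.34 times *Npr3*. These ratios rest on gene lengths of 10257 bases for *Gja1*, 5003 for *Gjc1* and 4783 for *Npr1*. The longest coding transcripts of the same genes have 3182, 2314 and 4066 bases. The order of the close pair *Npr1* and *Gjc1* therefore depends on the length used. Among all genes of the table, *Gja1* ranked 54 by its mean over the 6 samples, *Nppc* 267 and *Npr2* 772, so that the hormone gene, its receptor and the main GC connexin were all highly expressed. *Npr1*, *Gjc1* and *Gja4* ranked 5920, 6601 and 9975, and *Npr3* ranked 15742. In the CTX group the order was the same except that *Gjc1* lay above *Npr1*. There the ranges of *Gjc1* and *Npr1*, and those of *Npr1* and *Gja4*, overlapped.

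*Nppc* (chr1:86666291-86670571, minus strand, GRCm38), the gene of the ligand, was 166, 176 and 195 FPKM in PBS replicates 1 to 3 and 144, 87.5 and 129 FPKM in CTX replicates 1 to 3. Every CTX sample was below every PBS sample, with CTX replicate 2 the lowest and CTX replicate 1 the closest to the PBS range. The means were 179 ± 14.7 and 120 ± 29.3 FPKM (SD, n = 3), resting on 3078 to 3363 and 1618 to 2722 reads. In limma the log2 fold change of FPKM + 0.1 was -0.60 (SE 0.19, 95% confidence interval -1.06 to -0.14), and after Benjamini-Hochberg adjustment over all genes tested it did not pass (adjusted p = 0.179). Without CTX replicate 2, it was -0.39 (-0.62 to -0.15, limma adjusted p = 0.10), so that 1 library moved the estimate by more than 1.5 times and its direction stayed the same.

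*Npr2* (chr4:43631935-43651244, plus strand), the gene of the CNP receptor, was 71.1, 73.3 and 71.0 FPKM in PBS and 66.9, 42.2 and 62.1 FPKM in CTX. The PBS samples had a coefficient of variation of 1.82%, and all CTX samples lay below them, with CTX replicates 1 and 3 at 93.1% and 86.5% of the PBS mean and CTX replicate 2 at 58.7%. The means were 71.8 ± 1.31 and 57.1 ± 13.1 FPKM (SD, n = 3). The log2 fold change was -0.36 (SE 0.17, 95% confidence interval -0.78 to 0.06, limma adjusted p = 0.301) with all samples and -0.16 (-0.31 to 0.00, limma adjusted p = 0.257) without CTX replicate 2. An antisense gene, *Gm12473*, shares 266 exon bases with *Npr2* and was measured at 46.9, 50.2 and 43.6 FPKM in PBS and 49.0, 35.1 and 43.7 FPKM in CTX. The library kit does not mark strand, so reads from the shared bases of the 2 genes cannot be told apart.

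Ligand and receptor can be set against each other within each sample, since FPKM is per length. The log2 ratio of *Nppc* to *Npr2* was 1.22, 1.26 and 1.46 in PBS and 1.11, 1.05 and 1.06 in CTX. All CTX ratios lay below all PBS ratios, and CTX replicate 2, which was low in both genes, had a ratio like those of its group mates. The difference of -0.24 gave p = 0.10 in a two-sided exact permutation test, which is the smallest p that 3 against 3 samples allow.

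*Npr1* (chr3:90450591-90465866, minus strand), the gene of the other guanylyl cyclase receptor, was 11.8, 11.5 and 10.1 FPKM in PBS and 9.04, 0.978 and 8.08 FPKM in CTX. CTX replicate 2 had 83 reads on the gene, where the other samples had 692 to 1011. CTX replicates 1 and 3 were at 81.2% and 72.5% of the PBS mean, close to their 80.6% and 72.2% for *Nppc*, while CTX replicate 2 was at 8.78% for *Npr1* and 48.9% for *Nppc*. The means were 11.1 ± 0.909 and 6.03 ± 4.40 FPKM (SD, n = 3), and the spread of the CTX group was the widest of any member, at a coefficient of variation of 73.0%. The log2 fold change was -1.38 (SE 0.80, 95% confidence interval -3.31 to 0.55, limma adjusted p = 0.375) with all samples and -0.37 (-0.61 to -0.14, limma adjusted p = 0.112) without CTX replicate 2. The size of the difference therefore rested on that library and its direction did not.

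*Npr3* (chr15:11839896-11907287, minus strand), the gene of the clearance receptor, was 0.382, 0.476 and 0.401 FPKM in PBS and 0.341, 0.0960 and 0.161 FPKM in CTX. These values rest on 61 to 82 reads in PBS and 16 to 58 in CTX, and the groups did not overlap. The mean over the 6 samples, 0.310 FPKM, was below the filter, and in limma with no filter on low values the log2 fold change was -0.88 (SE 0.38, 95% confidence interval -1.79 to 0.04, adjusted p = 0.416). The clearance receptor was thus 171 times below *Npr2* by the PBS means, a difference of levels between genes and not between groups.

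**Figure D2:**
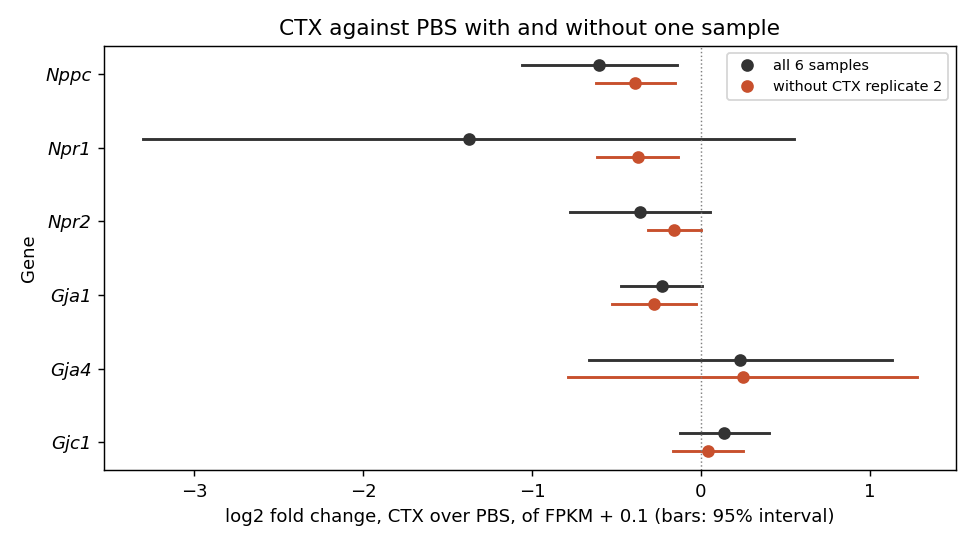
Log2 fold change of FPKM + 0.1, CTX over PBS, for the 6 genes that passed the filter, with 95% confidence intervals from limma for all 6 samples (black) and without CTX replicate 2 (red); the dotted line marks no difference. The interval of *Npr1* ran from -3.31 to 0.55 with all samples and from -0.61 to -0.14 without that replicate, while the estimate of *Gja1* was -0.23 and -0.28.

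*Gja1* (chr10:56377330-56402513, plus strand), the gene of CX43, was 575, 543 and 566 FPKM in PBS and 503, 508 and 426 FPKM in CTX. All CTX samples lay below all PBS samples, and here the lowest was CTX replicate 3, not CTX replicate 2. The means were 561 ± 16.8 and 479 ± 45.9 FPKM (SD, n = 3), resting on 78295 to 105149 reads per sample, so counting error was small beside the spread between samples. The log2 fold change was -0.23 (SE 0.10, 95% confidence interval -0.47 to 0.01, limma adjusted p = 0.267), and it was -0.28 (-0.53 to -0.03, limma adjusted p = 0.211) without CTX replicate 2. It was -0.15 without CTX replicate 3, the lowest sample, so that library moved the estimate of *Gja1* by more than 1.5 times where CTX replicate 2 did not.

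*Gjc1* (chr11:102799579-102819700, minus strand), the gene of CX45, was 6.55, 6.84 and 7.33 FPKM in PBS and 6.85, 8.73 and 7.36 FPKM in CTX. The groups overlapped, and CTX replicate 2 was the highest of the 6 samples. The log2 fold change was 0.14 (SE 0.11, 95% confidence interval -0.12 to 0.40, limma adjusted p = 0.493) and 0.04 (-0.16 to 0.25, limma adjusted p = 0.825) without CTX replicate 2. Without CTX replicate 1 it was 0.21.

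*Gja4* (chr4:127311421-127314039, minus strand), the gene of CX37, was 1.37, 3.92 and 2.71 FPKM in PBS and 2.39, 2.84 and 3.58 FPKM in CTX, on 41 to 121 reads per sample. The lowest and the highest sample were both in the PBS group, and *Gja4* was the only member with a wider spread in PBS (coefficient of variation 47.9%) than in CTX (20.4%). The log2 fold change was 0.23 (SE 0.37, 95% confidence interval -0.66 to 1.13, limma adjusted p = 0.742), and its direction depended on PBS replicate 1, without which it was -0.16. It was 0.56 without PBS replicate 2 and 0.09 without CTX replicate 3. The interval allows a difference of 2-fold upward, and the data do not show that the level was equal in the groups.

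Because CX37 is an oocyte protein, *Gja4* was also set beside the oocyte markers, a comparison chosen after its values were seen. The summed FPKM of the 12 oocyte markers was 44.1, 97.7 and 91.9 in PBS and 65.6, 116 and 107 in CTX, and the sample with the lowest sum, PBS replicate 1, also had the lowest *Gja4*. As a percent of that sum, *Gja4* was 3.10, 4.01 and 2.95 in PBS and 3.64, 2.45 and 3.34 in CTX. The highest of these percentages was 1.64 times the lowest, where the highest *Gja4* level was 2.87 times the lowest. Whether oocyte RNA carried with the GCs sets the level of *Gja4* was not tested.

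**Figure D3:**
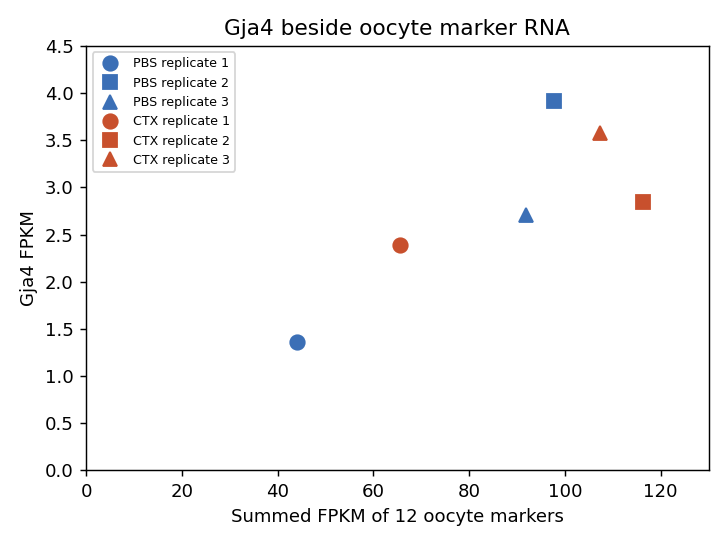
FPKM of *Gja4* against the summed FPKM of 12 oocyte markers, 1 point per GC sample, PBS in blue and CTX in red. PBS replicate 1 was lowest on both axes, at 1.37 and 44.1 FPKM, and the other 5 samples lay between 2.39 and 3.92 FPKM of *Gja4*.

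*Gja1* made up nearly all connexin RNA in these cells. Its share of the FPKM summed over the 20 connexin genes of the table was 98.4%, 97.7% and 98.0% in PBS and 97.8%, 97.2% and 96.9% in CTX. The groups overlapped narrowly and differed by -0.70 percentage points (two-sided exact permutation test, p = 0.20, n = 3 per group). Of the 20 connexin and pannexin genes besides the members, 2 passed the filter, 0 were called and 3 were at 0 in all samples. The tested ones were *Panx1*, a pannexin, which is a membrane channel outside the connexin family, at 6.02 ± 0.226 and 6.74 ± 1.42 FPKM, and *Gjc3* at 0.590 ± 0.126 and 1.07 ± 1.03 FPKM (SD, n = 3). The CTX mean of *Gjc3* rested on CTX replicate 2, at 2.24 FPKM beside 0.304 and 0.666, and without it the log2 fold change turned from 0.40 to -0.29. That of *Panx1* turned from 0.14 to -0.02. The next highest, *Gja6* and *Gja3*, had means of 0.464 and 0.238 FPKM over the 6 samples.

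The proteins that bind, phosphorylate or turn over connexins were 21 genes, of which 18 were tested and 0 called, with a median log2 fold change of 0.02. At an unadjusted p below 0.05, 2 of the 18 passed, a smaller share than the 19.6% of all genes tested, and both were higher in CTX: *Src*, a tyrosine kinase that closes CX43 channels, and *Mapk3*, the ERK1 kinase. *Src* was 13.2, 13.2 and 13.2 FPKM in PBS and 16.3, 18.7 and 16.3 FPKM in CTX (log2 fold change 0.37, SE 0.08, limma adjusted p = 0.084). The groups were well apart for *Src*, yet it missed the threshold and its difference was under 2-fold. *Mapk3* had a log2 fold change of 0.18 (SE 0.06, limma adjusted p = 0.193). The most abundant, the ubiquitin ligase *Nedd4*, the catenins *Ctnnb1* and *Ctnna1* and the kinase *Prkcd*, had log2 fold changes from -0.04 to 0.14 and overlapping groups. Without CTX replicate 2 those of *Ctnnb1* and *Prkcd* turned sign, to 0.04 and -0.10, while *Nedd4* and *Ctnna1* had 0.06 and 0.13. *Prkca*, a further kinase of CX43, had -0.61 with all samples and -0.15 without CTX replicate 2, and *Dbn1*, an actin-binding scaffold, had 0.16 and 0.08.

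Around the receptors, 34 further genes encode other ligands of these receptors, process or degrade the peptides, or make, break down, carry or respond to cGMP. Of these 19 were tested and 0 called, with a median log2 fold change of 0.09, and 3 of the 19 passed an unadjusted p below 0.05 (19.6% of all genes tested did), 1 lower and 2 higher in CTX. The lower one was *Prkg2*, a membrane-bound cGMP-dependent protein kinase, at 2.75, 2.36 and 2.21 FPKM in PBS and 0.812, 0.0840 and 0.478 FPKM in CTX. Every CTX sample was well below every PBS sample, with 192 to 263 reads in PBS and 79, 8 and 46 in CTX. The log2 fold change of *Prkg2* was -2.46 (SE 0.57, 95% confidence interval -3.85 to -1.07, limma adjusted p = 0.108). Without CTX replicate 2, it was -1.80 (limma adjusted p = 0.0175) and the gene was called, with an SE of 0.24 in place of 0.57. *Prkg2* was called in 5 of 15 alternative settings.

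The 2 genes of this group that were higher in CTX at an unadjusted p below 0.05 were *Pde11a*, a phosphodiesterase of cGMP and cAMP, and *Impdh2*, an enzyme of GTP supply. *Pde11a* was 1.45, 1.49 and 1.54 FPKM in PBS and 2.02, 2.18 and 2.32 FPKM in CTX (log2 fold change 0.51, SE 0.12, limma adjusted p = 0.111). *Impdh2* was 29.7, 31.6 and 31.6 FPKM in PBS and 35.7, 43.3 and 39.3 FPKM in CTX (log2 fold change 0.34, SE 0.09, limma adjusted p = 0.123). In both genes every CTX sample was above every PBS sample, and neither difference reached 2-fold. *Nos2*, the inducible nitric oxide synthase, was 12.4 to 13.2 FPKM in PBS and 12.5, 70.0 and 29.1 FPKM in CTX, so its log2 fold change of 1.19 (limma adjusted p = 0.300) rested on CTX replicates 2 and 3. It was 0.57 without CTX replicate 2. The abundant *Impdh1* and *Guk1* had -0.24 and 0.15 with all samples and -0.06 and 0.07 without CTX replicate 2. *Pde5a*, the cGMP phosphodiesterase, was 1.37 ± 0.225 and 1.57 ± 0.363 FPKM (SD, n = 3), and *Prkg1*, the other cGMP-dependent kinase, had at most 9 reads in any sample.

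Hormones and growth factors that control *Nppc*, *Npr2* or the junctions were followed in 20 genes, with 18 tested, 0 called and a median log2 fold change of 0.04. At an unadjusted p below 0.05, 3 of the 18 passed, against 19.6% of all genes tested, and all were lower in CTX: *Inhba*, the activin subunit, *Fshr*, the FSH receptor, and *Btc*, an EGF-like ligand. *Inhba* was 902, 822 and 754 FPKM in PBS and 665, 211 and 487 FPKM in CTX (log2 fold change -1.01, limma adjusted p = 0.244, and -0.53 without CTX replicate 2). *Fshr* was 92.2, 88.5 and 94.5 FPKM in PBS and 80.5, 42.8 and 69.9 FPKM in CTX (log2 fold change -0.56, limma adjusted p = 0.248, and -0.29 without CTX replicate 2). *Btc* was 1.37, 2.64 and 1.94 FPKM in PBS and 0.769, 1.27 and 0.864 FPKM in CTX (log2 fold change -0.94, limma adjusted p = 0.175). In *Inhba* and *Fshr* the order of the CTX samples was that of *Nppc*, *Npr1* and *Npr2*, with replicate 1 highest and replicate 2 lowest. *Lhcgr*, the LH receptor whose signal ends CNP action at ovulation, was 112, 113 and 108 FPKM in PBS and 129, 1.48 and 53.1 FPKM in CTX. The LH-induced ligand *Ereg* was 1.02, 1.82 and 1.38 FPKM in PBS and 1.46, 0 and 0.906 FPKM in CTX. *Esr2*, the GC oestrogen receptor, ran the other way, at 52.8 to 54.8 FPKM in PBS and 51.5, 136 and 74.4 FPKM in CTX. None of these 3 genes had separate groups.

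**Figure D4:**
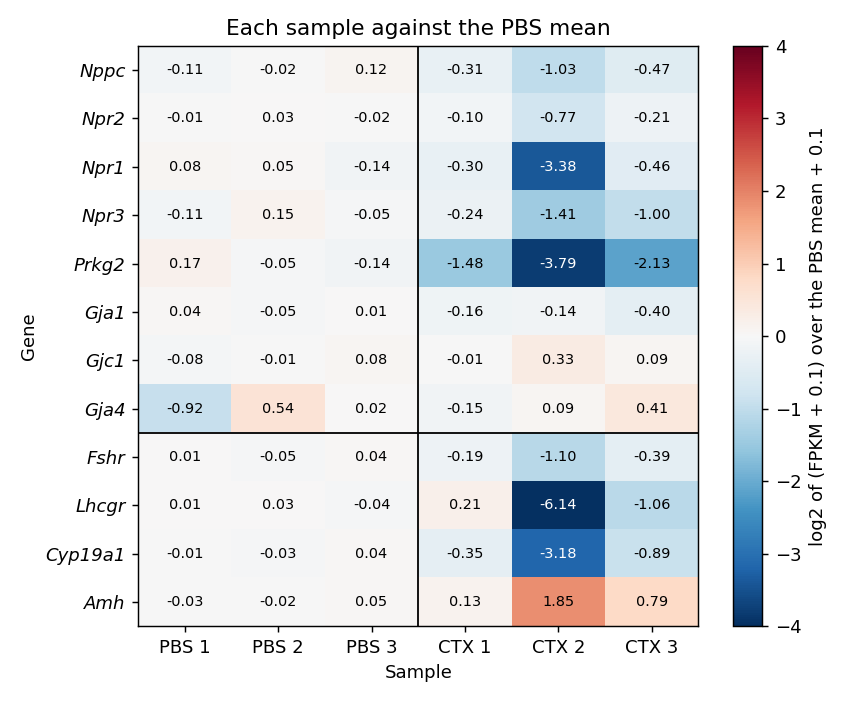
Log2 of FPKM + 0.1 in each sample over the PBS mean + 0.1, for the 7 genes and *Prkg2* (above the line) and 4 follicle genes (below it), with blue for lower and red for higher values. CTX replicate 2 had the lowest value of its group in *Nppc* (-1.03), *Npr2* (-0.77), *Npr1* (-3.38), *Npr3* (-1.41), *Prkg2* (-3.79), *Fshr* (-1.10), *Lhcgr* (-6.14) and *Cyp19a1* (-3.18), and not in *Gja1* (-0.14), where CTX replicate 3 was lowest.

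The values of CTX replicate 2 in some follicle genes stand beside the member values for that reason, and these genes were singled out after their values were seen. Other GC markers in that library were at 95.6% (*Inha*), 91.0% (*Fst*), 79.9% (*Hsd17b1*) and 69.9% (*Nr5a2*) of the PBS mean. *Fshr*, *Foxl2*, *Inhbb* and *Inhba* were at 46.7%, 40.9%, 32.6% and 25.6%, and *Esr2* was at 252%. *Cyp19a1*, the aromatase gene, was 59.2 to 62.4 FPKM in PBS and 47.6, 6.61 and 32.5 FPKM in CTX, and *Amh*, a hormone of smaller growing follicles, was 48.4 to 51.1 FPKM in PBS and 54.3, 179 and 85.5 FPKM in CTX. The theca marker *Cyp17a1* was 30.8 to 34.4 FPKM in PBS and 29.6, 1.25 and 12.4 FPKM in CTX. Of the 4 theca markers tested it was the only 1 lower in CTX by the fit. The other 3 had log2 fold changes from 0.02 to 0.89, and 0 of the 4 were called. *Cyp19a1* and *Cyp17a1* had the same order of CTX samples as *Nppc* and *Npr1*, *Amh* had the opposite order, and the part of follicle stage or of the makeup of the pools in the member values was not tested.

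Genes of the machinery that holds or releases oocyte meiosis were 21. Part of this machinery also runs mitosis in dividing cells, GCs among them, so its counts do not describe oocytes alone. Of the 21 genes, 18 were tested and 0 called. Of these, 10 passed an unadjusted p below 0.05, against 19.6% of all genes tested, 8 of the 18 had every CTX sample below every PBS sample (14.1% of all genes) and 4 had the opposite arrangement (15.0%), and the median log2 fold change was -0.06. *Cdc25c*, a phosphatase that activates CDK1, was 12.8 ± 0.214 FPKM in PBS and 7.30 ± 1.65 in CTX (SD, n = 3), a log2 fold change of -0.82 (SE 0.17, limma adjusted p = 0.078). The mitotic cyclins *Ccnb2* and *Ccnb1* had log2 fold changes of -0.71 (limma adjusted p = 0.114) and -0.54 (limma adjusted p = 0.179). Without CTX replicate 2, *Cdc25c* and *Ccnb2* had limma adjusted p = 0.0137 and 0.0243, with differences under 2-fold, and *Ccnb1* had a log2 fold change of -0.34. *Gpr3*, the receptor that keeps cAMP high in oocytes, was 0.328, 0.539 and 0.587 FPKM in PBS and 1.13, 0.701 and 1.33 FPKM in CTX (log2 fold change 0.97, limma adjusted p = 0.200), on 16 to 65 reads. The protein kinase A subunits *Prkar2b*, *Prkar1a* and *Prkaca*, the most abundant of this group, had log2 fold changes of -0.51, 0.02 and -0.13 with all samples and -0.25, 0.09 and -0.03 without CTX replicate 2. *Pde3a*, the oocyte enzyme that cGMP inhibits, was at 0.243 and 0.275 FPKM by the means and was not tested.

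The patterns most like each member were sought among protein-coding genes with a mean of at least 5 FPKM, by Pearson r of log2 FPKM over the 6 samples, which share the difference between groups and the distance of CTX replicate 2. For *Nppc* these were *Cdca8* (r = 0.999), *Tmem101* (0.998) and *Fzr1* (0.997). For *Npr2* they were *Cbfa2t3* (0.999), *Tle2* (0.998) and *Caskin1* (0.998). For *Npr1* they were *Knstrn*, *Sfrp2* and *Oplah* (0.997 each). *Nppc*, *Npr1* and *Npr2* had r above 0.9 with 678, 651 and 766 genes, or 9.0%, 8.64% and 10.2% of those compared, so their pattern was a common one in these samples. *Gja1* was most like *Cenpc1* (0.993), *Ccdc8* (0.991) and *Slc39a10* (0.988), with 121 genes (1.61%) above 0.9. *Gjc1* was most like *Cfap298* (0.997), *Faap100* (0.995) and *Gins2* (0.993), with 477 genes (6.33%) above 0.9. *Gja4* was most like *AU022751* (0.984), *Oas1d* (0.983) and *Zbed3* (0.964), and only 17 genes (0.226%) were above 0.9.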

How the data were processed

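Mouse GC transcripts were sequenced in 3 PBS and 3 CTX samples, grouped by their titles. RNA libraries were made with the NEBNext Ultra RNA kit, which does not mark strand. The authors deposited FPKM per gene. The submitters' processing notes name CASAVA 1.8, fastp, HISAT2 2.0.5, featureCounts 1.5.0-p3, DESeq2 1.20.0 and mm10, with no role given. The annotation release and strand setting are not given in the sources used here, and the table's coordinates of all 7 members equal those of GENCODE M21. The table also holds the authors' group means, fold changes and p-values, which were not used.

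FPKM and gene length gave whole reads in all values (tolerance 0.05), which set the depth and the voom alternative. Fits used limma 3.58.1 (R 4.3.3, lmFit, eBayes with trend) on log2(FPKM + 0.1) over the 14463 of 54532 genes whose mean FPKM reached 0.5, with Benjamini-Hochberg adjustment over all of them. On it, fold changes of weakly expressed genes come out too small. Single values were tested by two-sided exact permutation. The steps were tested on simulated data. For limma these had independent noise in each gene and no library that stood apart like CTX replicate 2. Separate pools of mice make the samples replicates, and the p-values measure the spread between pools.

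The members and lists were chosen with earlier results of these data known. The genes named were the members, *Cdkn1a* as a label check and, of each list, the genes called, the 4 with the highest mean FPKM and the 4 tested with the largest absolute log2 fold change, and the 3 most like each tested member. *Pde5a*, *Prkg1*, *Pde3a*, *Mapk3*, *Cyp19a1*, *Amh*, *Cyp17a1*, *Acta2* and *Gm12473* were added or singled out after their values were seen. Alternatives were other pseudocounts (0.01 and 1), filters, scalings, sample weights, variance priors, voom, a replicate block and leaving out each sample.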

Additional observations from a re-analysis of the deposited data

How the results depend on the processing

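The count of members called was 0 in every alternative run. *Nppc*, *Npr1*, *Npr2* and *Gja1* were lower in CTX, and *Gjc1* higher, in each of 16 alternatives: their log2 fold changes ranged from -0.75 to -0.39 (limma adjusted p 0.0042 to 0.429), -1.92 to -0.37 (0.112 to 0.583), -0.49 to -0.16 (0.029 to 0.540), -0.38 to -0.15 (0.0034 to 0.515) and 0.04 to 0.21 (0.137 to 0.825). *Gja4* ranged from -0.16 to 0.56 when single samples were left out and reversed to -0.16 without PBS replicate 1 (adjusted p 0.252 to 0.934 over 15 alternatives). Sample weights, whose estimation did not converge, put *Nppc*, *Npr2* and *Gja1* below an adjusted p of 0.05, all under 2-fold, in a fit where 39.8% of all genes fell below it. Scaling to equal FPKM sums moved the median of all genes to -0.08.

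The list of cGMP genes, with 0 called, had 1 called (*Prkg2*) with a pseudocount of 1, 1 (*Prkg2*) with quantile normalization and 2 (*Prkg2* and *Nos2*) with sample weights, and 0 to 1 when single samples were left out (1, *Prkg2*, without CTX replicate 1 and without CTX replicate 2). Of all genes, 0.816% were called with the pseudocount of 1 and 0.989% with quantile normalization. The share was 1.42% without CTX replicate 1 and 1.38% without CTX replicate 2, against 0.961% in the reported fit. With sample weights, 1 gene of the upstream list (*Btc*) and 1 of the meiosis list (*Gpr3*) were called, in a fit that called 4.54% of all genes. The cause of these differences was not tested. Samples with the same replicate number deviated together with r of 0.056, 0.024 and 0.006 across genes, so the numbers were not taken as pairs. With the replicate block, 0 members and 50 genes in all were called, against 139 without it. With the block, the differences in *Gja1* share (-0.70 percentage points) and in the *Nppc* to *Npr2* log2 ratio (-0.24) each gave p = 0.25 by exact sign-flip permutation, the smallest that 3 pairs allow. With 16 to 82 reads, *Npr3* is limited by depth.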
